A study of Mus musculus with 24 samples.

Results

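Cilium and intraflagellar transport genes were examined in peak lists of SOX8, SOX9, H3K4me3 and H3K27ac from mouse retina. The set held the 69 protein-coding genes, of 21887 in RefSeq's annotation (GRCm38.p6), whose symbols begin with Bbs, Ift, Nphp or Cep and a number, with Dync2 or with Rpgrip1, or are Mks1 or Wdpcp. They were 38 Cep, 14 Ift, 8 Bbs, 3 Nphp, 2 Dync2 and 2 Rpgrip1 genes, with Mks1 and Wdpcp. The symbol alone chose them, so the set mixes genes of the cilium itself with genes of the centriole.

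The data are CUT&RUN libraries, in which a nuclease brought by an antibody releases the DNA around a chromatin-bound protein. Retinas were wild type and taken at postnatal day 2 (P2) or 17 (P17), with 600000 nuclei per reaction. Each age had 4 SOX8 libraries (2 antibodies), 2 libraries for SOX9, H3K4me3 and H3K27ac each, and 2 IgG libraries. The strain is not named in the labels. One deposited list per target and age gives the position of its peaks and no height, and it names no replicate. No error between animals or libraries can therefore be given, no test was made, and a peak is only present or absent in a list. The 4 IgG libraries were not analysed here. As a check of the tissue, H3K4me3 peaks lay at 7 of 8 retinal marker genes at each age and at 0 of 5 genes of liver, pancreas, heart, skin and T cells. The P2 H3K27ac list had peaks at 3 of those 5, and the P17 list at 0.

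A primary cilium is a microtubule stalk that grows from a centriole docked at the cell surface. Intraflagellar transport carries proteins along it: IFT-B trains move out with kinesin, IFT-A and dynein-2 bring them back, and the BBSome links membrane cargo to the trains. The transition zone at the base controls what enters. In photoreceptors the light-sensing outer segment is an enlarged cilium joined to the cell by a connecting cilium that resembles a transition zone, and mutations in many of these genes cause retinal degeneration. H3K4me3 marks promoters in use, and H3K27ac marks promoters and enhancers in use. SOX8 and SOX9 are related transcription factors of retinal progenitors and Müller glia, the main glial cells of the retina.

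Peaks were assigned to a gene from an overlap of 1 bp with its body or the 5 kb flanking it. Almost all cilium genes carried the active marks. H3K4me3 peaks lay at 59 members at P2, or 85.5% (95% Wilson interval 75.3 to 91.9%, which covers counting error only), against 49.3% of all protein-coding genes. At P17 they lay at 64 members (92.8%, 84.1 to 96.9%) against 50.9% of all genes. H3K27ac peaks lay at 69 of 69 members at P2, when 81.8% of all genes had one, and at 66 (95.7%) at P17 against 57.0%.

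SOX peaks were less common. At P2, SOX8 peaks lay at 16 members (23.2%, 14.8 to 34.4%) against 15.1% of all genes, and SOX9 peaks at 30 (43.5%, 32.4 to 55.2%) against 27.7%. At P17, SOX8 peaks lay at 9 members (13.0%, 7.02 to 23.0%), the same share as the 13.0% of all genes. SOX9 peaks lay at 15 at that age (21.7%, 13.6 to 32.8%) against 15.7%. The higher shares at P2 did not hold among marked genes. Of members with P2 H3K4me3, 25.4% had SOX8 and 45.8% SOX9, against 29.8% and 53.3% of all genes with that mark. At P17 these shares were 14.1% and 21.9% in members against 23.1% and 27.4%. Member genes are also long, with a median of 42616 bp against 17169 bp over all genes. Whether length bears on these shares was not tested.

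**Figure D1:**
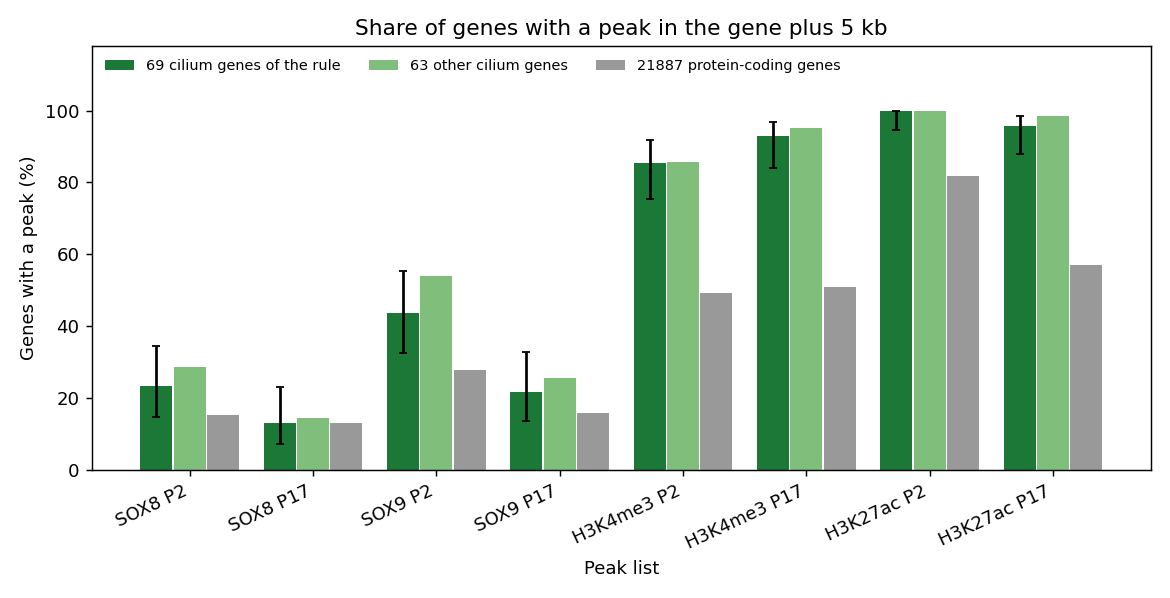
Share of genes with a peak in the gene plus 5 kb, in percent, for each of the 8 lists. Dark bars are the 69 cilium genes with 95% Wilson intervals, light bars 63 other cilium genes, grey bars 21887 protein-coding genes; the marks lie at nearly all cilium genes, while SOX shares run from 13.0% to 43.5% in the 69 genes and from 14.3% to 54.0% in the 63.

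A second list of 63 cilium genes that the naming rule does not reach (among them Ttc8, Arl6, Wdr19, Kif3a, Cc2d2a, Ahi1, Rpgr and Rfx3) was counted in the same way. The shares were close to those of the members: 28.6% and 14.3% for SOX8 at P2 and P17, 54.0% and 25.4% for SOX9, and 85.7% and 95.2% for H3K4me3. H3K27ac lay at 63 of 63 at P2 and at 62 at P17.

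**Figure D2:**
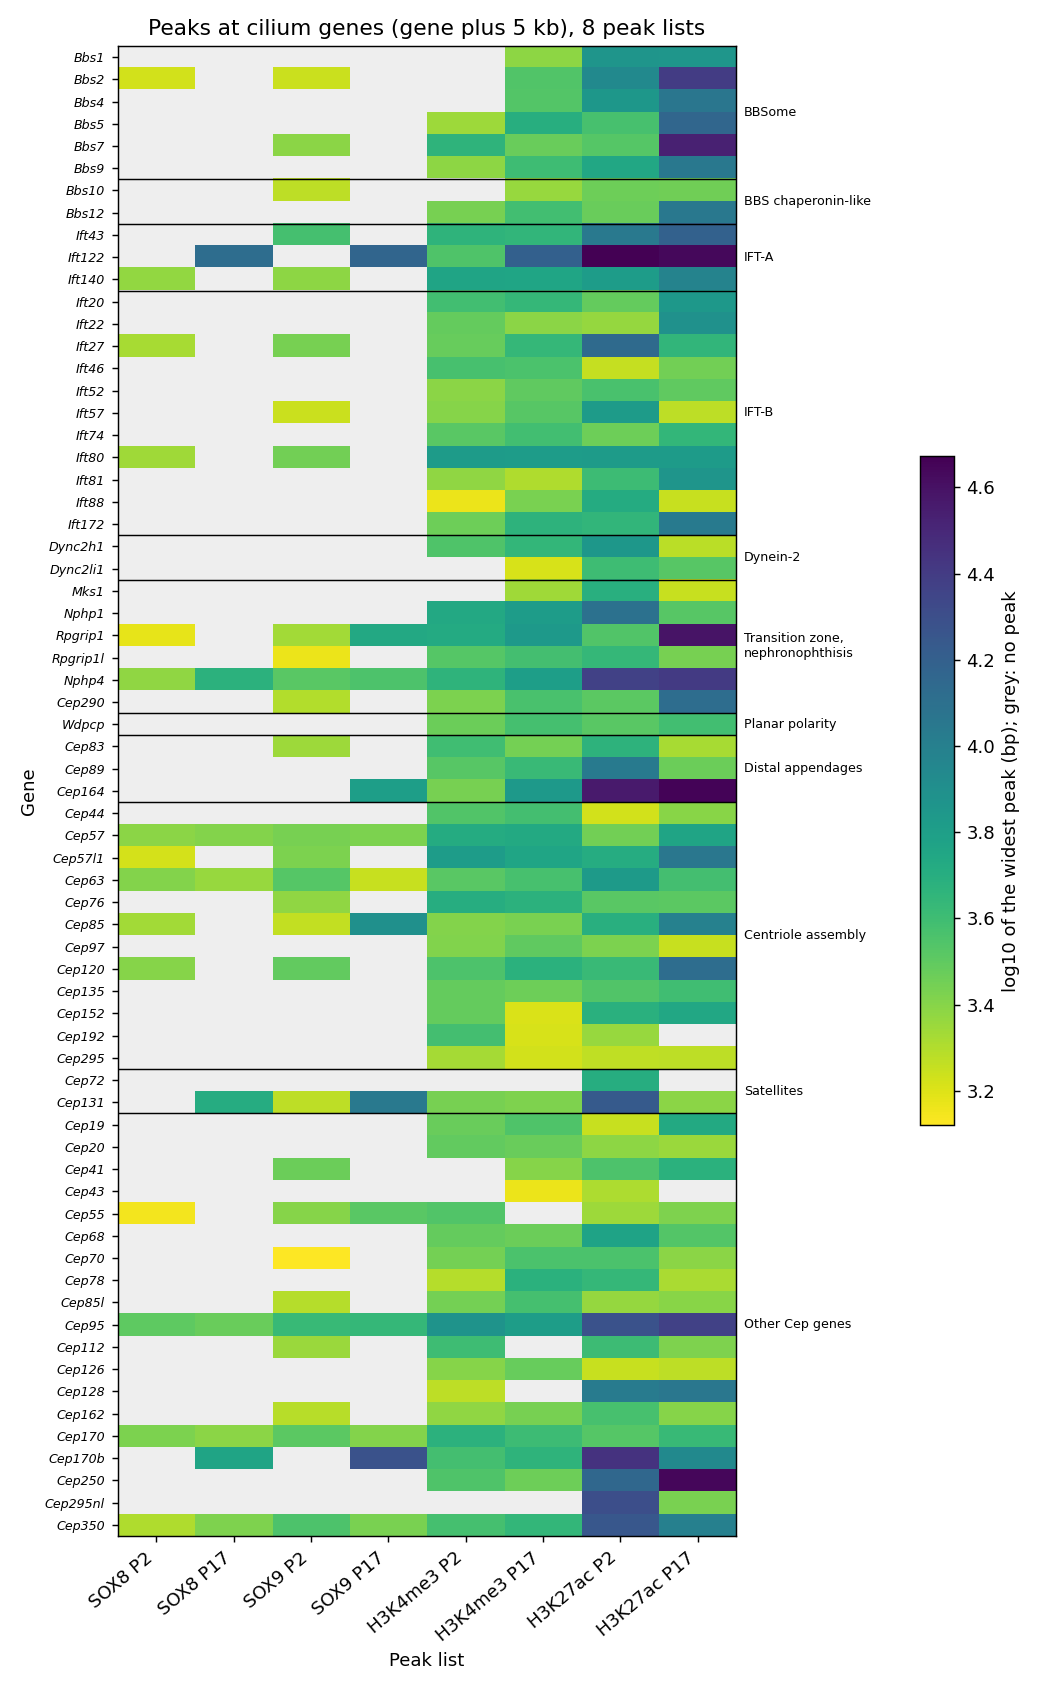
Widest peak at each gene shown (rows, by role) in each list (columns), as log10 of its width in bp, with grey where the list has no peak. The SOX columns are mostly grey in the BBSome, IFT-B and dynein-2 rows, and the P2 H3K4me3 column is grey at several Bbs genes that are filled at P17.

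The start of a gene was taken from RefSeq promoter windows, which held 57 of the 69 members (66 starts) and 17492 of all genes. A peak was placed at a start when it came within 1 kb of it. H3K4me3 lay at the starts of 44 of 57 members at P2 and of 53 at P17, while 45.1% and 46.3% of all genes had it there. In between, 12 members gained H3K4me3 at the start, 3 lost it, 41 had it at both ages and Cep72 at neither. The gains were 12 of the 13 starts without the mark at P2, against 8.52% of all such starts. Most unmarked genes of the table are unmarked at both ages, so the share among genes marked at P17 is the closer comparison: 22.6% of the 53 marked members were new since P2, against 10.1% of all marked genes. The losses, 3 of 44 or 6.82%, were near the 7.62% of all genes. In the second list of cilium genes, 7 of 8 unmarked starts gained the mark and 1 of 49 marked starts lost it, and 12.7% of its 55 starts marked at P17 were new.

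The 12 starts that gained H3K4me3 belonged to Bbs1, Bbs2, Bbs4, Bbs7, Bbs10, Ift43, Ift172, Dync2h1, Mks1, Rpgrip1, Cep41 and Cep43. Their P17 peaks were 1464 to 5398 bp wide, with a median of 2750 bp, against 3686 bp at the 41 starts marked at both ages. Of the 12 genes, 7 had no P2 H3K4me3 peak anywhere in the gene or its flanks. The other 5 had one that lay at a neighbour or in a flank: Rpgrip1 (at Hnrnpc), Ift172 (at Fndc4), Dync2h1 (at Dcun1d5), Bbs7 and Ift43. None of the 12 starts had a P17 SOX peak, while 8.86% of all genes had SOX8 and 10.5% SOX9 at the start then. A P2 SOX9 peak lay at 3 of the 12, against 23.2% of all genes. On 12 starts these counts are near the background.

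Counted over the gene plus 5 kb, 8 of the 10 members without P2 H3K4me3 had it at P17, against 9.86% of all such genes. Of the 64 members marked at P17 these 8 were 12.5%, against 9.82% in all genes, which is near the background. Dync2li1, the light intermediate chain of dynein-2, was among these 8 with a P17 peak of 1638 bp, and it has no start in the promoter windows. The 3 losses of 59 (5.08%) compare with 6.91% of all genes. Among members the gain at the start itself was thus more frequent than in all marked genes, on 12 of 53 starts. In the second list of cilium genes the share new at the start, 12.7%, was nearer the 10.1% of all genes. Over the whole gene region, where a neighbour's peak can stand in for the member's own, the gain in members was less clear. With lists of equal number the change over the gene region turned from 7.25 to -1.45 percentage points, and 11 starts gained the mark while 6 lost it. No share of all genes is given here for those lists. The retina is a mixed tissue, so more cells with a mark and more of the mark per cell cannot be told apart.

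**Figure D3:**
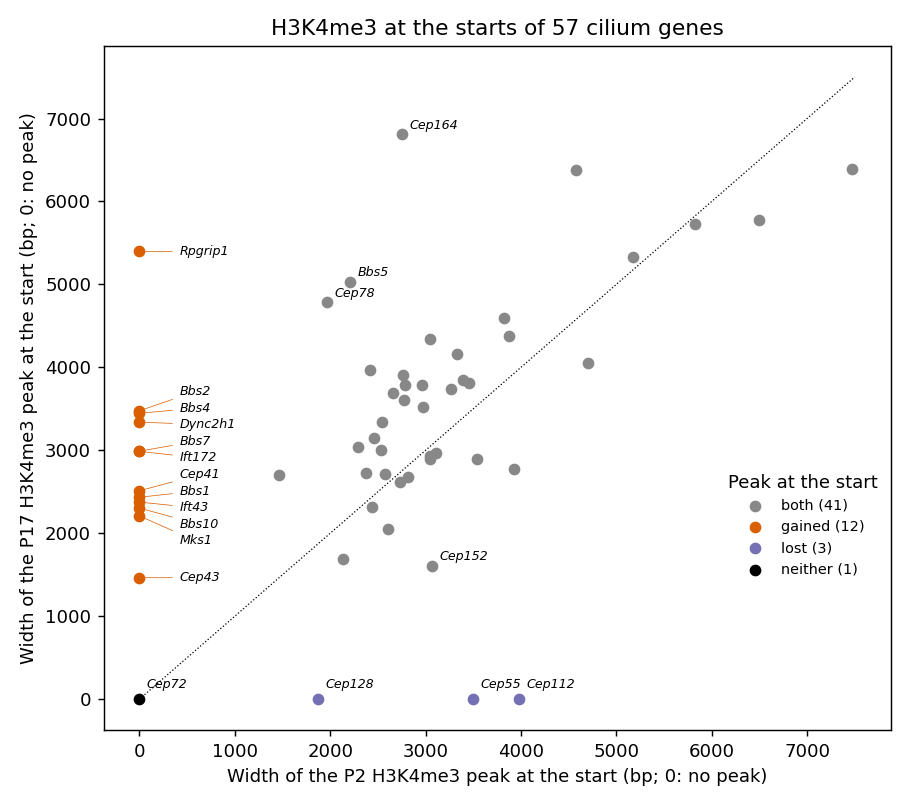
Width in bp of the H3K4me3 peak at the start at P2 (x axis) and P17 (y axis) for 57 cilium genes, with 0 where there is no peak and a dotted line of equal width. The 12 genes on the left edge gained a peak of 1464 to 5398 bp, the 3 genes on the lower edge lost one, and among genes marked at both ages Cep164, Bbs5 and Cep78 lie farthest above the line.

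In the BBSome, 4 of 6 starts gained the mark. At P2 the starts of Bbs5 and Bbs9 carried H3K4me3, and at P17 those of all 6 BBSome genes did. At Bbs1 the P17 peak was 2434 bp wide, at Bbs2 3477 bp, at Bbs4 3446 bp and at Bbs7 2989 bp, each with no P2 peak at the start. At the start of Bbs5 the peak was 2210 bp wide at P2 and 5030 bp at P17 (ratio 2.28), and at Bbs9 2417 and 3973 bp (ratio 1.64). Of the chaperonin-like genes that help the BBSome assemble, Bbs10 gained a peak of 2303 bp and Bbs12 went from 2761 to 3907 bp. H3K27ac also widened at several of these starts: from 981 to 33957 bp at Bbs7, from 2346 to 14357 bp at Bbs5 and from 1390 to 11501 bp at Bbs4. P17 peaks covered only 16683 bp of the Bbs7 region, so the peak of 33957 bp reaches beyond the gene and its flanks. H3K27ac cover of the region went from 18.5% to 33.1% at Bbs7, from 47.7% to 85.7% at Bbs5 and from 35.5% to 38.6% at Bbs4. Over all genes the median H3K27ac peak at a start was 2181 bp at P2 and 3706 bp at P17. The P2 H3K27ac list holds 287845 peaks with a median of 1166 bp and the P17 list 29909 with a median of 3268 bp, so widths of this mark are not on an equal footing between the ages.

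Among the transport genes, IFT-B was marked throughout. All 11 IFT-B genes had H3K4me3 in the gene region at both ages, and at the start only Ift172, a large subunit of the train, was new at P17 (2988 bp). The smallest P2 peak at an IFT-B start was that of Ift88, 1464 bp, which measured 2700 bp at P17 (ratio 1.84). In IFT-A, Ift43 gained a start peak of 2376 bp, while Ift140 kept one of 5830 and 5733 bp. Dync2h1, the heavy chain of the return motor, gained a peak of 3340 bp, which also lay within 1 kb of a start of Dcun1d5.

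In the transition zone, Mks1 gained a start peak of 2208 bp and Rpgrip1 one of 5398 bp. Rpgrip1 anchors the retinitis pigmentosa GTPase regulator RPGR in the connecting cilium of photoreceptors. Its H3K27ac peak at the start measured 3456 bp at P2 and 38625 bp at P17, and the mark covered 16.7% and 64.3% of the gene region. Cep290, Rpgrip1l and Nphp4 had start peaks at both ages, of 2663 and 3686 bp, 3393 and 3845 bp, and 4577 and 6374 bp. All 3 widened, by ratios of 1.38, 1.13 and 1.39.

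The Cep genes, most of them named for the centrosome, held gains, losses and changes of width in both directions. Of the 3 starts that lost H3K4me3, all were Cep genes: Cep55, which acts in the last step of cell division (3496 bp at P2), Cep112 (3979 bp) and Cep128 (1870 bp), a protein of the subdistal appendages. The start peak of Cep152, a scaffold for centriole duplication, went from 3065 to 1611 bp (ratio 0.53), and that of Cep83, a distal appendage protein, from 3930 to 2769 bp (ratio 0.70). The widest H3K4me3 peak at Cep192, a partner of Cep152 in duplication, went from 3846 to 1646 bp (ratio 0.43), and its region had no P17 H3K27ac peak. Other Cep genes widened: Cep164, which starts cilium assembly at the distal appendages, from 2751 to 6808 bp (ratio 2.47), and Cep78, from 1970 to 4787 bp (ratio 2.43). Over the 41 starts marked at both ages the median ratio of P17 to P2 width was 1.14 with a range of 0.53 to 2.47, and 63.4% widened. Over all 7288 such genes the median was 1.05, and 58.6% widened. Cep72 and Cep295nl had no H3K4me3 peak at either age, and P17 H3K27ac was missing at Cep72, Cep192 and Cep43.

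The sequences at starts that gained the mark were searched for an arm of the X-box, the paired element bound by the RFX factors that switch on cilium genes, for a core bound by the photoreceptor factor CRX, and for a SOX core. RefSeq windows run from 250 bases before to 50 after the start, which is position 251. The searches, on both strands and with overlapping matches kept, were GTTGCC for the X-box arm, TAATCC for CRX and AACAAT for SOX. In the lines below, printed 5′ to 3′ on the gene's strand with GRCm38.p6 coordinates, capitals mark matches. The first 4 were chosen after their values were seen as examples with an X-box arm, Rpgrip1 for its role, and Bbs2 because SOX8 and SOX9 peaks lay there at P2.
Bbs1, chr19:4906578-4906877, minus strand: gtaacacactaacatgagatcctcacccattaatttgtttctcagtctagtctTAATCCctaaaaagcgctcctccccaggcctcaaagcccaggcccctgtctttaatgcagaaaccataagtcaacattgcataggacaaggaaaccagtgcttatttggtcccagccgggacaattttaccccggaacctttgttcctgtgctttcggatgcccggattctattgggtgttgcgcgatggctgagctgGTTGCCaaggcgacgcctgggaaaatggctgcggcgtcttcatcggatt
Ift172, chr5:31291065-31291364, minus strand: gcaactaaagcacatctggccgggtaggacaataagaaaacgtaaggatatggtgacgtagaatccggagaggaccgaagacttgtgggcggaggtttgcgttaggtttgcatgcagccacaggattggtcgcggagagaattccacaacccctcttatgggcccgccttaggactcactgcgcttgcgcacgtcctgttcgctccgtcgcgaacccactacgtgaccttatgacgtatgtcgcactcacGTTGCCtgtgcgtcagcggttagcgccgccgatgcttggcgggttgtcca
Mks1, chr11:87852965-87853264, plus strand: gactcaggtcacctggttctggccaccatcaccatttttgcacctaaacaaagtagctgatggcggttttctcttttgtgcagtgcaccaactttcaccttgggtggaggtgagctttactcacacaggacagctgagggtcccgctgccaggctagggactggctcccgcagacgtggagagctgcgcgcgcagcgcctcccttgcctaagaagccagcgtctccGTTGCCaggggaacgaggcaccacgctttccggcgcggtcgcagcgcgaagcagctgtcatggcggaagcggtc
Cep41, chr6:30693700-30693999, minus strand: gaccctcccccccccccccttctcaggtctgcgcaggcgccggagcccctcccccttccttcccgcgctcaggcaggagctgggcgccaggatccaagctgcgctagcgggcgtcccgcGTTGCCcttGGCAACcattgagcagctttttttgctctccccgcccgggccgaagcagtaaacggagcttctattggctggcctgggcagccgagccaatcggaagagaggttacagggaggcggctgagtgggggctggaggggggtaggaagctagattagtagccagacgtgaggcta
Rpgrip1, chr14:52110653-52110952, plus strand: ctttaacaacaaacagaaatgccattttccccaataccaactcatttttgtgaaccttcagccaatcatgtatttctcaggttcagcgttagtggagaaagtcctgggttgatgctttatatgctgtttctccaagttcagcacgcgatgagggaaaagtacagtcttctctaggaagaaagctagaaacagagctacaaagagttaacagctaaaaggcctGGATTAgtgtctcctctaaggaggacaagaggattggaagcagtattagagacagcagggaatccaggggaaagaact
Bbs2, chr8:94098460-94098759, minus strand: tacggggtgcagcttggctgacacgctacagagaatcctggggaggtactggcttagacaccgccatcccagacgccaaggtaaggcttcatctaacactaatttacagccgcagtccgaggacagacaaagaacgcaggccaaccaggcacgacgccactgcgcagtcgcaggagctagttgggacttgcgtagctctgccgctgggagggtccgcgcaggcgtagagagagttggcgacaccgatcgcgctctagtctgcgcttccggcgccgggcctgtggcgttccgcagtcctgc

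X-box arms were frequent in the set. They were present in 20 of 66 member windows (30.3%), against 12.6% of all 21263 windows and 13.0% of those within 1 kb of a P17 H3K4me3 peak. In the second list of cilium genes the share was 31.0% of 71 windows. The windows of members had a median GC content of 60.7% and 22 CpG, against 62.3% and 23 in all windows near P17 H3K4me3. By gene, 19 of 57 members had an arm: Bbs1, Bbs5, Bbs7, Ift27, Ift57, Ift88, Ift140, Ift172, Dync2h1, Mks1, Nphp4, Cep19, Cep41, Cep57, Cep97, Cep112, Cep128, Cep164 and Cep170b. Of the 12 windows of genes whose start gained H3K4me3, 6 had one. In Bbs1 the arm began at position 252, in Ift172 at 251 and in Mks1 at 227, and Cep41 held an arm in each orientation at 120 and 129.

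The CRX core was at its background share, in 6.06% of member windows against 6.42% of all, and it was present in those of Bbs1, Rpgrip1, Cep72 and Cep85l. The SOX core was in 4 of 66 member windows (6.06%), against 9.05% of all windows and 4.90% of those near P17 H3K4me3. Of the 28 member windows whose start lay inside a SOX peak, 0 held it, against 4.42% of all 5590 such windows. These are matches of letters in 300 bases, while the SOX peaks are kilobases wide, and they do not show where a factor sits.

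**Figure D4:**
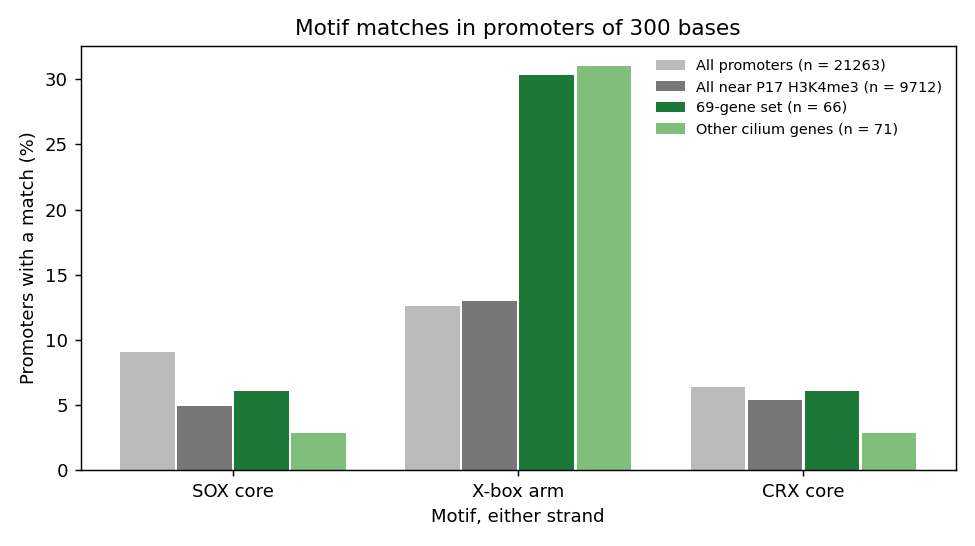
Percent of promoter windows of 300 bases with a match to each motif on either strand, for all genes, all windows near P17 H3K4me3, the cilium genes of the rule and the other cilium genes. The X-box arm stands at 30.3% and 31.0% in the cilium sets against 12.6% and 13.0%, and the other motifs are at 9.05% or less in each.

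SOX peaks at P2 sat at gene starts. Of 57 members with a known start, 22 had a P2 SOX9 peak there (38.6%, against 23.2% of all genes) and 11 a P2 SOX8 peak (19.3% against 12.4%). P2 H3K4me3 lay at 77.2% of member starts but at 45.1% of all. Among genes with P2 H3K4me3 in the gene region, members had the lower shares, 45.8% against 53.3% for SOX9 and 25.4% against 29.8% for SOX8. All 16 members with a P2 SOX8 peak also had P2 SOX9, as did 95.8% of all genes with SOX8. Of the 30 SOX9 peaks at members, 27 (90.0%) overlapped P2 H3K4me3 and 30 overlapped H3K27ac, against 84.9% and 99.4% of SOX9 peaks at any gene. The P2 SOX8 peaks were 1395 to 3181 bp wide and the P2 SOX9 peaks 1318 to 4209 bp. Their medians, 2172.5 and 2404 bp, were close to the 2211 and 2650.5 bp over all genes.

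At P2 both SOX factors lay at the starts of Bbs2, Ift27, Ift140, Nphp4, Cep55, Cep57, Cep57l1, Cep63, Cep85, Cep95 and Cep170. SOX9 without SOX8 lay at those of Bbs10, Ift57, Cep290, Rpgrip1l, Cep41, Cep70, Cep83, Cep85l, Cep112, Cep131 and Cep162. Cep120, Cep350 and Ift80, which have no start in the windows, had P2 peaks of both factors overlapping the gene, and Cep76 one of SOX9. At Bbs2, Bbs10 and Cep41 the P2 SOX9 peaks of 1748, 1893 and 2959 bp lay at starts without P2 H3K4me3. Such peaks were not more common at members, where 90.0% of P2 SOX9 peaks overlapped the mark, against 84.9% at any gene. All 3 starts carried H3K4me3 at P17 and no SOX peak at that age. Both changes were common in the set: 12 of 13 unmarked starts gained the mark, and 16 of 22 starts with SOX9 lost that peak. The widest P2 peaks at members were those of Cep95 (3181 bp for SOX8 and 4209 bp for SOX9), followed for SOX9 by Ift43 (3782 bp), Cep350 (3558 bp), Cep63 (3377 bp) and Nphp4 (3299 bp). For SOX8, Cep170 (2673 bp), Cep63 (2573 bp), Cep120 (2511 bp) and Cep57 (2450 bp) followed.

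Some of these peaks belong to another gene as much as to the member. The P2 SOX9 peak counted for Bbs7 lay 39 bp beyond the gene, on Ccna2, and that of Ift43 lay 2653 bp away on Tgfb3. Both P2 SOX peaks of Rpgrip1 lay at the start of Hnrnpc, with their centres at -6774 and -6994 bp from the start of Rpgrip1. Starts of 16 of 57 members (28.1%) lie within 1 kb of a start on the opposite strand, against 9.61% of all genes. Cep57 shares its SOX peaks in this way with Fam76b, Cep63 with Anapc13, Cep95 with Ddx5, Cep57l1 with Sesn1, Cep290 with Tmtc3, Rpgrip1l with Fto, Ift140 with Cramp1l and Nphp4 with Kcnab2. The P2 SOX peaks of Ift80 also overlapped Smc4, and that of Cep76 overlapped Psmg2. Those of Cep170 at both ages overlapped Sdccag8, a gene of the second list. Which of the paired genes a peak serves was not tested.

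**Figure D5:**
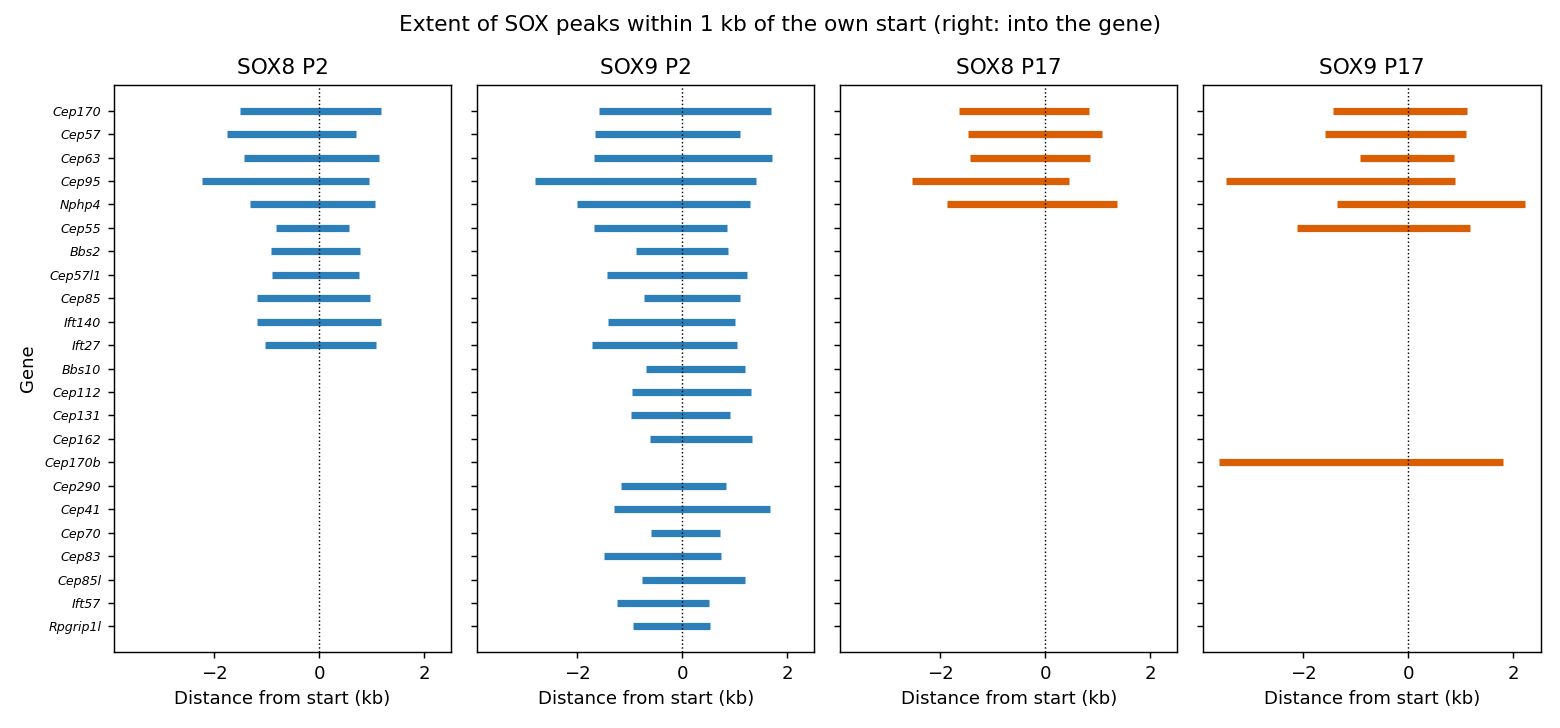
Extent of each SOX peak within 1 kb of the own start, as distance from the start in kb with the gene body to the right. Nearly every bar spans the start at 0, with 22 genes in the P2 SOX9 panel, 11 in the P2 SOX8 panel, 5 in the P17 SOX8 panel and 7 in the P17 SOX9 panel.

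With age most of these peaks left the lists. Of 30 members with P2 SOX9, 19 had none at P17 (63.3%, against 58.9% of all genes), and of 39 without it 4 gained one (10.3%, against 6.01%). Of 16 members with P2 SOX8, 10 had none at P17 (62.5%, against 46.4%), and 3 of 53 gained one (5.66%, against 5.82%). At the start itself the loss was 16 of 22 for SOX9 (72.7%, against 64.8% of all genes) and 6 of 11 for SOX8 (54.5% against 50.2%). The losses of SOX9, and of SOX8 at the start, were near those of all genes, while over the gene region SOX8 was lost at a higher share of members, on 16 genes, and SOX9 was gained at a higher share, on 4. The P2 SOX9 list is the longer one, with 5476 peaks against 2855. With the widest peaks in equal number at both ages, the change in SOX9 at members turned from -21.7 to 4.35 percentage points.

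Cep57, Cep63, Cep95, Cep170, Cep350 and Nphp4 had a peak in each of the 4 SOX lists, or 8.70% of members against 6.45% of all genes. At Cep57, a protein around the centriole, the start peaks were 2450 (SOX8) and 2760 bp (SOX9) at P2 and 2550 and 2685 bp at P17. At Cep63, its partner there, they were 2573 and 3377 bp at P2 and 2288 and 1782 bp at P17. At Cep170, a subdistal appendage protein, they were 2673 and 3263 bp at P2 and 2462 and 2550 bp at P17. The peaks of Cep350 overlapped the end of the gene that lies at 155973270 on chromosome 1, with 2019 and 3558 bp at P2 and 2634 and 2688 bp at P17. At Nphp4 they were 2370 and 3299 bp at P2 and 3233 and 3585 bp at P17. The ratio of P17 to P2 width of the widest SOX9 peak had a median of 1.09 over the 11 members with SOX9 at both ages (0.53 to 5.93), against 1.52 over all 2494 such genes. At Cep95 the start peaks were 3181 and 4209 bp at P2 and 2990 and 4340 bp at P17. The windows of Cep57 and Nphp4, and of the transport genes Ift27 and Ift140 with both SOX factors at the start at P2, are shown because their starts lie inside SOX peaks and they hold no SOX core. Capitals mark X-box arms. The Nphp4 window printed has none, and the window of another Nphp4 start has one at position 252.
Cep57, chr9:13827004-13827303, minus strand: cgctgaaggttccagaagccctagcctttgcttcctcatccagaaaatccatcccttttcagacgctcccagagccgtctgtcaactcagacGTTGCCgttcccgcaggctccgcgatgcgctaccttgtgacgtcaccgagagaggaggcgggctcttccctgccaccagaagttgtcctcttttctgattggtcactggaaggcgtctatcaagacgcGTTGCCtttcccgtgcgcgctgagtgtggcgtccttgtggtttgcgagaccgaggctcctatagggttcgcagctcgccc
Nphp4, chr4:152476456-152476755, plus strand: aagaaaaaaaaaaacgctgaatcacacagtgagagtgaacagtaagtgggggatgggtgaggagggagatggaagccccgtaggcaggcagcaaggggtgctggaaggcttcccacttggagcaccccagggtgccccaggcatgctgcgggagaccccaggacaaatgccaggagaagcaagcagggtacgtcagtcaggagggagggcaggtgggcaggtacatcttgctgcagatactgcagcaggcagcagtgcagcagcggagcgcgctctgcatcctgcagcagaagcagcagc
Ift27, chr15:78174032-78174331, minus strand: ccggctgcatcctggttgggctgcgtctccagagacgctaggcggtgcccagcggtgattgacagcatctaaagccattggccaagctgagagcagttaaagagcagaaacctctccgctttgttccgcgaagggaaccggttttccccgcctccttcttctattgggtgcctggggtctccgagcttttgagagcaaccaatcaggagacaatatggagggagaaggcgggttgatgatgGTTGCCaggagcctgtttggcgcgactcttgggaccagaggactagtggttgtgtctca
Ift140, chr17:25015836-25016135, plus strand: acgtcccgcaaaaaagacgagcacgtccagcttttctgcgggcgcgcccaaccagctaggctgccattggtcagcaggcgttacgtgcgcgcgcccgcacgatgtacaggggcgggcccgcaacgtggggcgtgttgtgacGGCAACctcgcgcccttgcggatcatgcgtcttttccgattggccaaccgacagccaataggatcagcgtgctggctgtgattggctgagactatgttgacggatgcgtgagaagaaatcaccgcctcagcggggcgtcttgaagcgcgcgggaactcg

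At both ages some SOX peaks at members lay away from the starts in the windows. At P2, 4 of 16 SOX8 and 7 of 30 SOX9 peaks at members (23.3% for SOX9) had none within 1 kb, against 25.2% and 29.5% of peaks at any gene. At P17 these shares were 58.3% of 12 SOX8 and 47.4% of 19 SOX9 peaks at members, against 41.5% and 41.3% at any gene, so they were higher than at P2 in all genes as well as in members. Of the 19 P17 SOX9 peaks at members, 57.9% overlapped H3K4me3, against 68.7% of those at any gene. The 8 that did not overlap it had a median width of 5896.5 bp against 3585 bp for the others. Widths over all genes were not split in this way, so this contrast has no background beside it.

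Cep170b, a relative of Cep170, had the widest SOX peak at a member, a P17 SOX9 peak of 19188 bp (chromosome 12, 112729823 to 112749010) and SOX8 peaks of 5817 and 4585 bp within its span, next to a SOX9 peak of 5419 bp at its start. It had no SOX peak at P2. Cep131, a centriolar satellite protein, lost its P2 SOX9 peak of 1873 bp at the start and had P17 SOX9 peaks of 11116 bp inside the gene and 5358 bp just beyond it, with SOX8 peaks of 5141 and 569 bp. None of these 4 P17 peaks overlapped H3K4me3 or H3K27ac of that age. Cep164 had P17 SOX9 peaks of 5371 and 6309 bp inside the gene, with centres 44850 and 21803 bp from its start, under H3K27ac and not under H3K4me3. Nphp4 had a P17 SOX8 peak of 4702 bp in its body, with its centre 53608 bp from the nearest start.

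A P17 SOX9 peak of 5484 bp lay inside Ift122, under H3K27ac and not under H3K4me3. The P17 SOX9 peaks counted for Cep85 and Rpgrip1 lay at the starts of Sh3bgrl3 (7774 bp) and Hnrnpc (5410 bp). Cep55 had a P17 SOX9 peak of 3293 bp at its start, where H3K4me3 had been lost.

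The roles are small groups, and no difference between them was tested. In any of the 4 SOX lists, a peak lay at 3 of 11 IFT-B genes (Ift27, Ift57 and Ift80), at 2 of 6 BBSome genes (Bbs2 and Bbs7) and at 0 of 2 dynein-2 genes, against 6 of 12 centriole assembly genes and 5 of 7 transition zone genes. All of those at IFT-B and BBSome genes were at P2. The peaks of Ift80 also overlapped Smc4, and that of Bbs7 was the peak on Ccna2. Of the transition zone genes, Rpgrip1 was counted through peaks at Hnrnpc, and the start peaks of Cep290, Nphp4 and Rpgrip1l also lay at a neighbour's start. In centriole assembly the same held for the start peaks of Cep57, Cep57l1 and Cep63, and the peak of Cep76 overlapped Psmg2. All 3 IFT-A genes were counted, Ift140 at its own start, shared with Cramp1l, and Ift43 through the peak on Tgfb3. Ift122 had the P17 SOX9 peak inside the gene. Of all 69 members, 35 (50.7%) had no SOX peak, against 66.1% of all genes.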

How the data were processed

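Peaks had been called by the authors from CUT&RUN libraries of P2 and P17 mouse retina. GRCm38, Bowtie2 and SEACR are named in the submitters' processing notes, with no version, role or threshold, and how replicates and IgG entered is not given in the sources used here. Each deposited list is a BED file of peak positions whose score is 0 in every row. Read depth is unknown. Lists made at unlike depths or thresholds would differ in how many peaks they hold and how wide these are.

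Starts were shifted to count from 1. Overlaps with 21887 protein-coding genes (RefSeq, GRCm38.p6) were computed in Python 3.11.15 with pandas 2.3.3, with an overlap search tested on simulated data against a plain loop. Gene starts and sequences came from RefSeq promoter windows, which held 57 of 69 members. Wilson intervals (95%) cover counting error only. No test was made, since no list holds replicates.

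The members and gene lists were chosen with earlier results of these data known. Genes are named where they have a P17 SOX peak, both P2 SOX peaks at the start, 1 of the 5 widest SOX peaks of a list, or absent or changed H3K4me3; other examples were chosen after their values were seen. Some genes and peaks that this rule names are not reported here, though the counts include them. Promoter windows were ranked by SOX lists and peak width, and 4 of the first 10 are printed with 6 chosen later. For each share of members with a peak, and its change with age, 7 alternatives were tried, and 5 for the starts that gained H3K4me3. Other counts had none.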

Additional observations from a re-analysis of the deposited data

How the results depend on the processing

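Of 89 alternative values, 69 stayed within the interval of the reported share or change, or within 1.5 times the reported count, 17 moved outside and 3 changed sign. Each change with age that turned did so with the widest peaks in equal number at both ages: SOX9 at members went from -21.7 to 4.35 points (P2 share 17.4%), H3K4me3 from 7.25 to -1.45 points (P17 share 84.1%) and H3K27ac from -4.35 to 24.6 points (P2 share 71.0%). The direction of these changes over the gene region thus depends on list length, since the cut shortens only the longer list. The wider 50% of each list gave 10.1% for SOX8 and 15.9% for SOX9 at P2, 10.1% for SOX9 at P17, 31.9% and 46.4% for H3K4me3 at P2 and P17, 59.4% for H3K27ac at P17, and changes of -5.80 points for SOX9 and -40.6 for H3K27ac. Without the Cep genes, 31 members gave 6.45% for P17 SOX8, 12.9% for P17 SOX9, 100% for P17 H3K4me3 and H3K27ac, and an H3K4me3 change of 19.4 points. With starts only, P17 SOX9 was at 12.3%. The count of 12 starts that gained H3K4me3, tried under settings added after the data were seen, was 12 with the start inside the peak, 10 within 5 kb, 11 with lists of equal number, 11 with trimmed peaks and 10 of 10 unmarked starts without the Cep genes. Lost starts rose from 3 to 6 with lists of equal number and to 7 with trimmed peaks. No paired analysis was possible because no list names a replicate, and for the same reason no replicate could be left out.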

Other observations

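The P17 H3K27ac peak at the start of Cep164 measured 45070 bp (1574 bp at P2). That of Cep250, a linker protein of paired centrioles, measured 43830 bp (1726 bp at P2). The P2 list already held wide peaks elsewhere in both gene regions, up to 36105 bp at Cep164 and 14176 bp at Cep250. Cover of the Cep164 region was 83.4% at P2 and 67.4% at P17, and that of Cep250 81.8% and 90.4%. At the start of Cep170b the order of widths was the opposite, with 28002 bp at P2 and 3317 bp at P17. The H3K27ac mark covered 85.7% of the Bbs5 region at P17 and 47.7% at P2, and 1.72% of the Ift88 region at P17 against 49.1% at P2.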
